A study of Mus musculus with 8 samples.

Results

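The Rxra locus is described here as 889 CpG sites of the 136069 in the deposited table, those on mouse chromosome 2 from 27525000 to 27640000. The interval was chosen by measured values, because region means in it were higher in lung metastases than in primary tumors. Its methylation levels are therefore given as a description, and no test is offered for the locus as a whole. Tests of single sites and regions, run over the whole table, are given below. Because such values led to the choice, they describe the locus and are not independent support. The samples were 3 lung metastases marked TVI, 3 lung metastases marked MFP and 2 primary mammary tumors marked MFP, all labelled as 4T1 cells of BALB/c strain. 4T1 is a transplantable mouse mammary carcinoma line that spreads to the lung. What MFP and TVI stand for is not spelled out in the labels, and neither are ages, treatments or whether replicates came from separate mice. The labels hold no TVI primary tumor, and in TVI metastases against tumors the organ and the TVI mark cannot be told apart.

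Rxra encodes retinoid X receptor alpha, a nuclear receptor that binds DNA as the shared partner of the retinoic acid receptors, the PPARs, the liver X receptors, the vitamin D receptor and the thyroid hormone receptors. With them it turns signals from retinoids, fatty acids, sterols and hormones into changes of transcription. Methylation of cytosine in CpG dinucleotides is usually absent from CpG islands at gene starts, is high along the bodies of transcribed genes, and takes intermediate levels at many distal regulatory elements. Every level below is the percentage of bisulfite-sequencing calls at a site that were methylated, and every difference is in percentage points.

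The sites were placed on the gene by sequence. Within 3 Mb of Rxra, the CG dinucleotides of RefSeq promoters (GRCm38.p6) coincided with deposited sites after a shift of 144479 bp. At that shift all 156 deposited sites inside these promoters, 96 of them before Rxra, 59 after it and 1 at its second start, fell on a CG. Read without a shift, 4 of 63 did, and at the next best shift 29 of 199 did. The deposited positions are therefore not GRCm38, although the submitters' processing notes name mm10, and they are given here as deposited, taken as the earlier assembly mm9. Distances from the Rxra start rest on this shift, which was the same on both sides of the gene. By it, the annotated gene runs from 756 bp before the start of its main promoter to 86.1 kb after it. Exons and introns were not analysed here.

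RefSeq lists 2 Rxra promoters, which are shown because they hold the CG dinucleotides that methylation could act on at the gene's starts. Both are on the plus strand of GRCm38.p6, run from 250 bases before to 50 after a start, and have every CG in capitals.
start 1, chr2:27676951-27677250: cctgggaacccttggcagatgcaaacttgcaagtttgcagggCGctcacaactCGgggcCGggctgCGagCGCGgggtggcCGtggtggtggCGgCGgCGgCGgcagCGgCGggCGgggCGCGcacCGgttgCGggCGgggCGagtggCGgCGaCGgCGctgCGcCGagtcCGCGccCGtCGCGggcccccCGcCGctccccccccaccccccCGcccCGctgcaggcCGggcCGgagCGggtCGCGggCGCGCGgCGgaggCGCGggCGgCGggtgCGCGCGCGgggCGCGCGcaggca
start 2, chr2:27709042-27709341: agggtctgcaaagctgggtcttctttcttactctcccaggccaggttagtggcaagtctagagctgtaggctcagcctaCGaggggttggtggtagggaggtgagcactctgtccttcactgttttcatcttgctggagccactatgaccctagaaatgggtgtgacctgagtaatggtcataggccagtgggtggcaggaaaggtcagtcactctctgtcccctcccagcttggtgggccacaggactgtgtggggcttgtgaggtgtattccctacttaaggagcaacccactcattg
The first is 83.0% G and C and holds 55 CG, a number reached by 0.253% of the 32851 promoters in the table, and none of the 55 was among the deposited sites. The second start lies 32.1 kb into the gene, and its single CG, 171 bases before the start, was measured. Methylation there was 95.9%, 93.9% and 94.2% in TVI metastases, 96.3%, 95.5% and 94.9% in MFP metastases, and 95.1% and 89.2% in primary tumors. It was high in every sample, with overlapping groups.

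Sites lay in 23 regions of neighbors at most 500 bp apart, numbered here from upstream to downstream, and 1 lone site. Over the 889 sites, mean methylation was 75.9%, 76.2% and 76.2% in TVI metastases, 73.0%, 73.1% and 73.4% in MFP metastases, and 72.1% and 71.4% in primary tumors. The 3 groups did not overlap. The TVI mean exceeded the tumor mean by 4.32 points and the MFP mean exceeded it by 1.37 points. Over all 136069 sites the group means were 68.6% ± 0.0921 (SD, n = 3) in TVI metastases, 67.4% ± 0.0396 (SD, n = 3) in MFP metastases and, for the tumors, 66.7% ± 0.223 (SD, n = 2), so the order of the groups was the same over the whole table, with smaller differences. After quantile normalization, which gives all samples the same distribution of values, the locus differences were 2.44 points for TVI and 0.578 points for MFP metastases. The table gives fractions with no read counts, so depth is unknown and precision rests on replicates. The median SD of a locus site was 1.83 points among TVI metastases, 2.20 among MFP metastases and 1.81 among primary tumors. The samples are bulk DNA, in which a changed share of cells and a changed level per cell cannot be told apart.

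The differences were unevenly spread along the locus. In the downstream flank, 92 sites in regions 20 to 23 averaged 66.5%, 68.8% and 68.0% in TVI metastases, 51.2%, 52.2% and 52.5% in MFP metastases, and 48.1% and 46.2% in primary tumors. The mean was 20.6 points above the tumors in TVI metastases and 4.84 points above them in MFP metastases. Over the 572 sites of the gene body the same differences were 3.09 and 1.23 points, on a TVI level of 83.2% ± 0.143 (SD, n = 3), an MFP level of 81.4% ± 0.159 (SD, n = 3) and a tumor level of 80.1% ± 0.331 (SD, n = 2). In the upstream flank (56 sites) the differences were 3.23 points for TVI metastases and -0.296 points for MFP metastases.

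**Figure D1:**
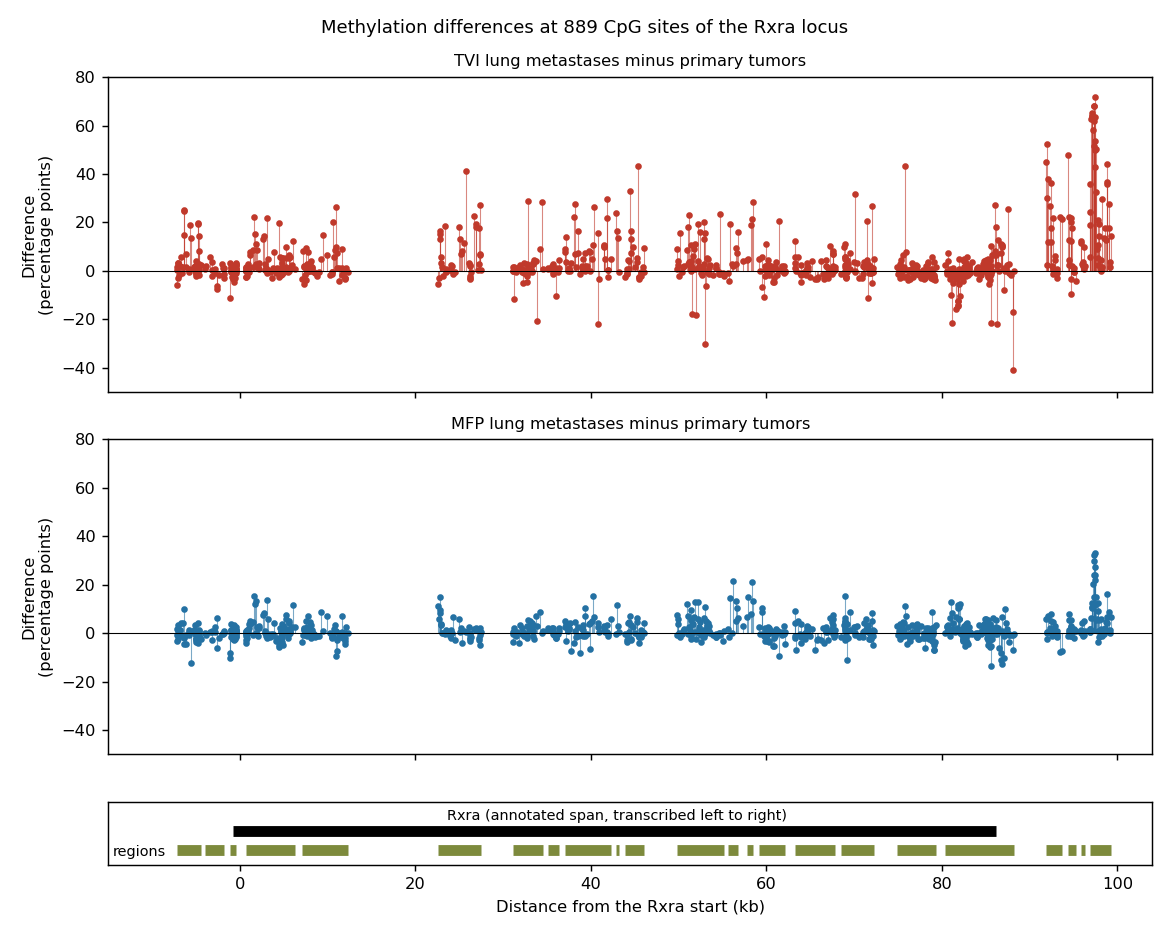
Difference in methylation from the primary tumors (percentage points, mean of 3 metastases minus mean of 2 tumors) at each of the 889 sites, against distance from the Rxra start (kb), for TVI metastases (top) and MFP metastases (middle). The lower track shows the annotated span of Rxra and the 23 regions. The tallest TVI and MFP differences both lie past the end of the gene, up to 71.9 points in TVI metastases and 33.1 points in MFP metastases.

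At the start of the gene, methylation was low in every sample. Region 3 (chr2:27531556-27532315, 40 sites) covers the earliest annotated start and ends 407 bp before the main one. It averaged 4.35%, 4.40% and 4.59% in TVI metastases, 3.67%, 4.11% and 4.79% in MFP metastases, and 4.64% and 4.22% in primary tumors. The groups overlapped, and 37 of the 40 sites stayed under 10% in all 8 samples. None of the 40 sites was called in either metastasis group against the tumors, where a call is an adjusted p under 0.05 in limma's moderated test with Benjamini-Hochberg adjustment over the whole table. The highest site, position 27531573, named after its values were seen, was at 73.3%, 76.9% and 79.3% in TVI metastases, 61.8%, 56.1% and 71.2% in MFP metastases, and 70.7% and 76.1% in tumors. The first site of the region, position 27531556, was at 34.5% to 53.3% in TVI metastases, 33.3% to 54.3% in MFP metastases, and 59.0% and 49.0% in tumors. Levels of metastases and tumors overlapped at both sites.

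Region 23 (chr2:27629557-27631958, 46 sites), which begins 10.7 kb past the annotated end of Rxra, had the largest difference in the locus. It averaged 79.8%, 82.3% and 81.5% in TVI metastases, 59.2%, 60.6% and 60.7% in MFP metastases, and 52.5% and 50.7% in primary tumors. The levels formed a staircase in which no TVI sample overlapped an MFP metastasis and no MFP metastasis overlapped a tumor. The nearest annotated gene downstream is the long noncoding RNA Gm39777 (155.8 kb from the Rxra start), and the next coding gene is Col5a1, which encodes a fibrillar collagen chain.

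Within region 23 the sites were split by their level in the tumors. Of its 46 sites, 23 were under 50% in the tumors, and these were higher by a median of 51.6 points in TVI metastases and 11.8 points in MFP metastases. The 10 sites at 90% or more in the tumors differed by -0.0756 to 4.60 points in TVI metastases. Sites already that high had little room to rise, and the split used the same tumors as the differences. The contrast between low and high sites is therefore partly set by the split. A block of 11 sites from 27630063 to 27630276 averaged 89.6% to 90.1% in TVI metastases, 54.0%, 56.5% and 57.3% in MFP metastases, and 34.3% and 33.9% in primary tumors. Replicates there stayed within a few points of each other. Just upstream, 4 sites from 27629849 to 27629890 averaged 82.2% ± 1.94 (SD, n = 3) in TVI metastases, 32.9% ± 7.51 (SD, n = 3) in MFP metastases and, for the tumors, 19.4% ± 2.76 (SD, n = 2). A second low block of 5 sites, from 27631368 to 27631577, reached only 38.9% ± 2.28 (SD, n = 3) in TVI metastases, with lower levels of 16.1% ± 3.27 (SD, n = 3) in MFP metastases and, for the tumors, 9.47% ± 5.90 (SD, n = 2). Between these blocks, the 8 sites from 27630805 to 27631022 averaged 95.3%, 91.4% and 90.3% in TVI metastases, MFP metastases and tumors.

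**Figure D2:**
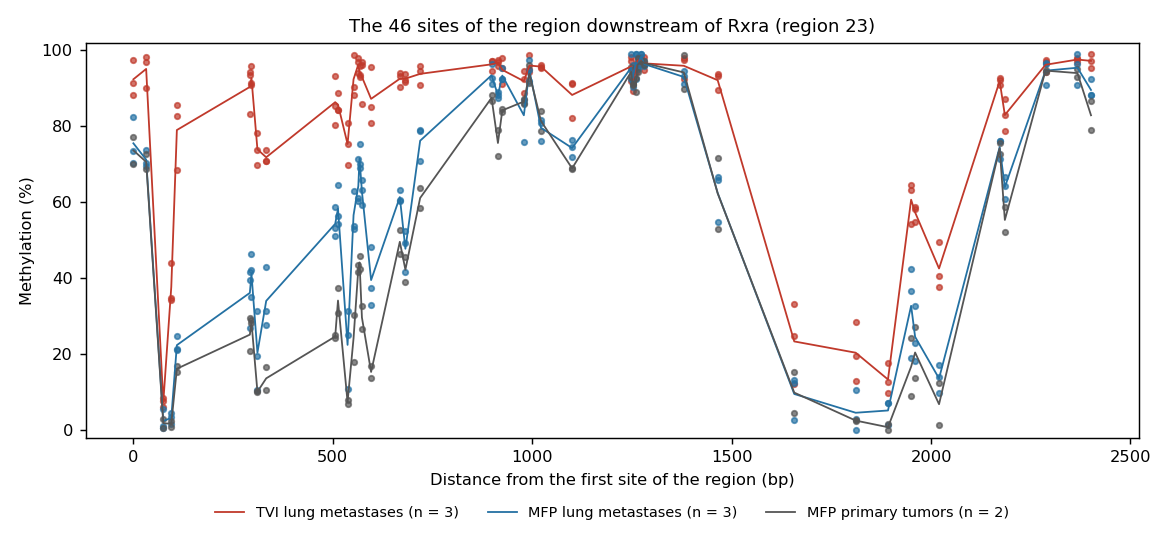
Methylation (%) of the 46 sites of region 23 against distance from its first site (bp), with a point per sample and a line through each group mean. The TVI line lies above the MFP line, which lies above the tumor line, over the block from 506 to 719 bp, and all 3 lie above 90% on average from 1248 to 1465 bp.

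All 10 of the locus sites with the largest TVI differences lay in region 23. Position 27630153 led, at 80.9%, 95.6% and 85.1% in TVI metastases, 37.3%, 32.9% and 48.3% in MFP metastases, and 17.0% and 13.7% in primary tumors. The other 9, between 27629666 and 27630130, were 58.2 to 68.2 points above the tumors. In all, 34 of the 46 sites were called higher in TVI metastases than in tumors, beside 11.4% of all sites in the table. Position 27630124, singled out after its values were seen, was the 1 site of the locus called between MFP metastases and tumors (0.0427% of all sites were called higher there). It had 93.4%, 95.7% and 93.0% in TVI metastases, 69.1%, 75.4% and 70.1% in MFP metastases, and 42.6% and 45.8% in tumors. That call was lost when any 1 of the 8 samples was left out.

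The other downstream regions differed mostly in TVI metastases. Region 20 (chr2:27624644-27626409, 22 sites), 5.8 kb past the gene's end, averaged 45.8% ± 1.70 (SD, n = 3) in TVI metastases, 30.2%, 30.6% and 31.9% in MFP metastases, and 31.8% and 28.5% in primary tumors. MFP metastases and tumors overlapped there, and TVI metastases stood above both. Its leading site, position 27624737, had 77.6%, 82.3% and 81.5% in TVI metastases, 21.6%, 30.1% and 25.3% in MFP metastases, and 28.3% and 28.0% in tumors. Region 21 (chr2:27627100-27627980, 16 sites) averaged 48.1%, 47.6% and 47.3% in TVI metastases, 40.3%, 40.7% and 39.8% in MFP metastases, and 38.9% and 38.3% in tumors, again a staircase but a shallower one. Its first site, position 27627100, had 43.2%, 56.4% and 60.8% in TVI metastases, and was almost unmethylated at 5.68%, 6.98% and 0.909% in MFP metastases and at 4.11% and 7.14% in tumors. Region 22 (chr2:27628568-27629017, 8 sites) was 90.8% ± 1.84 (SD, n = 3) in TVI metastases, 86.3% ± 1.14 (SD, n = 3) in MFP metastases and, for the tumors, 85.2% ± 1.30 (SD, n = 2).

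Inside the gene, regions 13 and 14 had a different pattern, with both metastasis groups at similar levels above the tumors. Region 14 (chr2:27590556-27591172, 5 sites), 57.8 kb after the start, averaged 53.5%, 59.4% and 56.2% in TVI metastases, 56.3%, 51.4% and 53.1% in MFP metastases, and 40.4% and 41.1% in primary tumors. Region 13 (chr2:27588401-27589521, 9 sites) averaged 84.3%, 86.0% and 85.5% in TVI metastases, 86.4%, 86.6% and 88.4% in MFP metastases, and 78.5% and 79.9% in primary tumors. In region 14 the metastasis groups overlapped each other, in region 13 MFP metastases were the highest, and neither region was called between TVI and MFP metastases, with differences of 2.76 and -1.88 points. A missed call does not show that the metastasis groups were alike. The lone site between them, position 27590046, was low in all groups, at 5.37% ± 3.22 (SD, n = 3), 4.27% ± 1.97 (SD, n = 3) and 1.25% ± 1.77 (SD, n = 2) in TVI metastases, MFP metastases and tumors. Without tumor replicate 1, or without tumor replicate 2, region 14 lost its call between MFP metastases and tumors, while its value stayed within 12.5 to 13.2 points.

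Most of the clear gene-body differences were those of TVI metastases. Region 6 (chr2:27555317-27560242, 41 sites) had 51.8%, 52.9% and 53.5% in TVI metastases, 47.0%, 47.5% and 47.1% in MFP metastases, and 45.2% and 46.4% in tumors. Region 9 (chr2:27569810-27574991, 44 sites) was 6.31 points and region 11 (chr2:27576588-27578743, 25 sites) 5.49 points above the tumors in TVI metastases, against 1.69 and 0.635 points in MFP metastases. Region 10 (chr2:27575604-27575967, 4 sites) was 13.4 points above the tumors in TVI metastases, but its MFP values spread from 53.6% to 66.3%. Its call against the tumors was lost without tumor replicate 1 (12.8 points), and its call against MFP metastases was lost without TVI replicate 2 or 3 (9.09 and 8.78 points). The call against MFP metastases was also lost with quantile normalization and with M-values (log ratios of the fractions). Smaller differences, of 2.44 to 3.25 points between TVI metastases and tumors, were called in regions 4, 5, 12 and 17, beside 49.6% of all regions called higher in this comparison. Region 4 (chr2:27533406-27538965, 75 sites), just after the start, averaged 71.7% in TVI metastases, 70.0% in MFP metastases and 68.5% in tumors. Region 5 averaged 93.0%, 90.8% and 90.6%, and region 12 averaged 89.3%, 88.1% and 86.0% in the same groups. Region 17, at 92.5% in TVI and 91.1% in MFP metastases, was 2.49 and 1.14 points above the tumors. The call of region 5 against the tumors was lost without tumor replicate 2 (1.75 points) and with M-values. Quantile normalization ended the calls of regions 5, 10, 12 and 17 against the tumors. Between TVI and MFP metastases, region 17 lost its call without TVI replicate 2 or 3 or without any 1 MFP metastasis, and region 15 (91.5% in TVI and 90.5% in MFP metastases, 90.6% in tumors) lost it without any 1 metastasis. Both calls were also lost with M-values, quantile normalization and the replicate block, and that of region 15 also without the variance trend.

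The rest of the gene body was mostly close to full methylation. Region 7 averaged 90.7% in TVI metastases, 90.3% in MFP metastases and 89.2% in tumors, region 8 averaged 94.4%, 94.8% and 94.3%, and region 16, of lower level, 74.7%, 74.1% and 73.5%. Upstream of the gene, region 1 (chr2:27525585-27528261, 40 sites) was higher in TVI metastases, at 64.3% ± 0.672 (SD, n = 3), against 59.2% ± 0.841 (SD, n = 3) in MFP metastases and, for the tumors, 59.6% ± 1.09 (SD, n = 2). Region 2 was at 90.5%, 90.8% and 90.8%. Region 18 (71 sites) was at 94.6% ± 0.233 (SD, n = 3) in TVI metastases, 94.4% ± 0.0924 (SD, n = 3) in MFP metastases and, for the tumors, 94.1% ± 0.382 (SD, n = 2). Single sites in such regions could still differ, and position 27608483 in region 18 had 72.0%, 85.5% and 86.7% in TVI metastases, 49.6%, 45.4% and 52.7% in MFP metastases, and 35.9% and 40.1% in tumors.

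**Figure D3:**
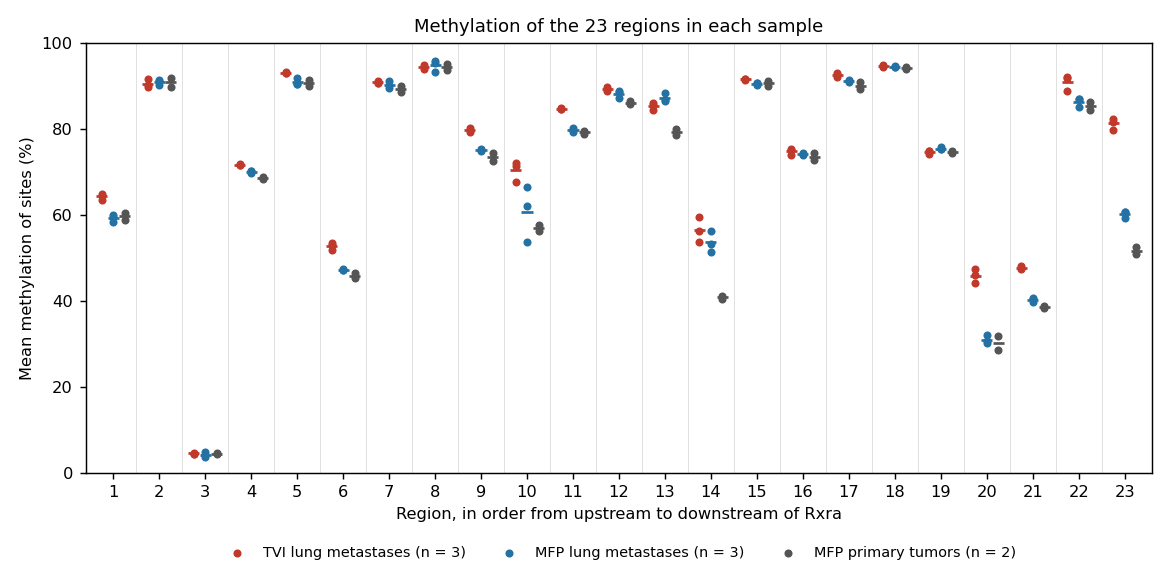
Mean methylation (%) of each of the 23 regions in each sample, with points for samples and bars for group means; within a region, TVI metastases stand left, MFP metastases in the middle and primary tumors right. Region 3, at the gene's start, stays under 5% in all samples, and the groups are widest apart in region 23.

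None of the 23 regions was called lower in TVI metastases than in tumors on the deposited scale, but 18 single sites were called lower than in tumors (5.24% of all sites were). Of these, 9 lay in the gene body and 9 in region 19 (chr2:27613115-27620964, 129 sites). Region 19 runs from 80.4 to 88.2 kb after the Rxra start and so spans the annotated end of the gene at 86.1 kb. Position 27620839, near the end of region 19 and past the gene's end, had 58.7%, 51.7% and 52.7% in TVI metastases, 93.2%, 97.2% and 93.8% in MFP metastases, and 97.2% and 93.8% in primary tumors. Position 27585709 in region 12 had 15.6% to 28.9% in TVI metastases, 55.4%, 51.0% and 47.0% in MFP metastases, and 49.3% and 53.9% in tumors. At both, MFP metastases and tumors overlapped and all TVI samples lay below them. The other sites among the 5 largest negative differences were positions 27573555, 27613919 and 27618975, with -21.5 to -21.8 points. Position 27618975 also lay past the gene's end. Another 7 sites of region 19 were called higher, or 5.43% of its sites, beside 11.4% of all sites. The mean of region 19 was 74.7%, 74.1% and 74.8% in TVI metastases, 75.2%, 75.2% and 75.7% in MFP metastases, and 74.9% and 74.3% in tumors.

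Sites were also grouped by their mean level over all 8 samples. That mean includes the values compared, so a site with a large difference tends to fall at an intermediate level. No ranking of the levels is therefore read from these medians. Among the 142 locus sites with a mean of 20% to under 80% over all 8 samples, the median TVI difference from the tumors was 17.8 points, and the MFP median was 3.69 points. Over all 21668 such sites in the table the medians were 8.48 and 1.80 points. For the 607 locus sites at 80% or more they were 0.813 and 0.372 points, beside 0.660 and 0.367 points in the whole table. For the 140 locus sites under 20% they were 0.642 and 0.542 points, beside 0.336 and 0.156 points in the whole table.

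Counts of calls are set beside their share in the whole table, and since these contrasts led to the choice of the locus nothing is read from the comparison. Against tumors, 136 of the 889 sites were called higher in TVI metastases and 18 lower, or 15.3% and 2.02%, beside 11.4% and 5.24% of all sites. Of the 136, 54 lay in the downstream flank and 34 of those in region 23. Between TVI and MFP metastases, 119 locus sites were called higher and 31 lower, beside 10.4% and 6.53% of all sites. The single call between MFP metastases and tumors compares with 0.0427% of all sites. For regions, 15 of 23 were called higher in TVI metastases than in tumors, beside 49.6% of all regions. In that comparison limma called 0 lower (0 at an unadjusted p under 0.05), beside 9.67% of all regions. The 3 regions called between MFP metastases and tumors were 13, 14 and 23, beside 4.93% of all regions. Regions called higher in TVI than in MFP metastases numbered 13, beside 42.0% of all regions. Quantile normalization left 11 regions higher and 2 lower (regions 2 and 19) in TVI metastases against tumors, and 9 higher and 2 lower (regions 13 and 19) against MFP metastases.

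With the mean of both metastasis groups set against the tumors, 14 regions and 73 sites were called higher, beside 41.6% of all regions and 5.12% of all sites. Such a call can rest on TVI metastases alone. In region 1, which was among the 14, MFP metastases differed from the tumors by -0.423 points. In the same comparison 4 sites were called lower (0.45%, beside 1.62% of all sites). These 77 site calls came to 51 without TVI replicate 3, to 33 without tumor replicate 1 and to 26 without tumor replicate 2. Samples separated into a staircase, with every TVI metastasis above every MFP metastasis and every MFP metastasis above both tumors, at 42 of the 889 sites and 7 of the 23 regions. The opposite order held at 3 sites and 0 regions, beside 0.551% of all sites and 0.389% of all regions. The shares with the rising order in the whole table were 2.54% of sites and 18.1% of regions. The 7 regions were 4, 6, 9, 12, 17, 21 and 23. In the other 16 regions at least 1 pair of neighboring groups overlapped or stood in another order.

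Sites just inside and outside the interval were as follows. The first site inside, position 27525585, had 91.0% ± 4.44 (SD, n = 3) in TVI metastases, 94.0% ± 5.05 (SD, n = 3) in MFP metastases and, for the tumors, 97.1% ± 1.33 (SD, n = 2). The nearest site outside, 948 bp before it, had 66.1% ± 3.72, 39.8% ± 9.13 and 35.6% ± 1.32 in the same groups and n. The last site inside, position 27631958, had 97.2% ± 1.83, 89.6% ± 2.45 and 82.9% ± 5.34. Past it the next deposited site was 762.9 kb away, with 68.2% ± 4.01, 86.4% ± 0.345 and 82.1% ± 1.11.

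Regions elsewhere with the sample levels most like region 23 were ranked by the mean absolute difference over the 8 samples, among 2908 regions of at least 5 sites, whose median was 23.8 points. The closest, on chromosome 17 from 46174174 to 46175393, differed by 2.42 points, with group means of 79.8% in TVI metastases, 58.9% in MFP metastases and 57.3% in tumors. Another, on chromosome 12 with its start at 8781817, differed by 3.22 points and had means of 80.6%, 54.0% and 50.2% in the same groups. The remaining members of the nearest 5 differed by 3.28 points (chromosome 8, start at 26676771), 4.00 points (chromosome 19, start at 3399310) and 4.07 points (chromosome 19, start at 9138581).

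Of the other retinoid pathway and RXR partner genes, few could be examined. Among 24 retinoid genes, 19 had a promoter sequence to place and 7 could be placed. At least 5 sites within 1 kb of a start were found for 3, namely Rxra, Rara and Rarg. Among 22 partner and cofactor genes, 18 had a promoter sequence, 10 could be placed and only Nrip1, a corepressor of nuclear receptors, had such sites. Rarg encodes retinoic acid receptor gamma, and around its start (31 sites) methylation was 23.4%, 21.0% and 21.7% in TVI metastases, 32.6%, 31.9% and 31.9% in MFP metastases, and 31.8% and 30.6% in tumors. TVI metastases lay below all other samples, with 7 of the 31 sites called lower and 0 higher against the tumors, beside 5.24% and 11.4% of all sites. Rara encodes retinoic acid receptor alpha, and around its starts (105 sites) methylation was 33.1% ± 0.611 (SD, n = 3) in TVI metastases, 35.7% ± 0.216 (SD, n = 3) in MFP metastases and, for the tumors, 33.3% ± 0.207 (SD, n = 2), with 7 sites called higher and 5 lower in TVI metastases than in tumors, beside 11.4% and 5.24% of all sites. Around the Nrip1 starts (56 sites) it was 12.1% ± 0.175 (SD, n = 3), 9.73% ± 0.287 (SD, n = 3) and 9.27% ± 0.113 (SD, n = 2), with 9 sites called higher in TVI metastases than in tumors, beside 11.4% of all sites. Around both Rxra starts (74 sites) it was 30.3% ± 0.106, 30.1% ± 0.188 and 29.9% ± 0.341. That mean pools 2 starts 32.1 kb apart and describes neither. Region 3, before the first start, averaged 4.45%, 4.19% and 4.43% in TVI metastases, MFP metastases and tumors. Region 7, around the second, averaged 90.7%, 90.3% and 89.2%. After quantile normalization, added after the data were seen, the differences of TVI metastases from tumors were -11.6 points at Rarg, 1.92 points at Nrip1, -2.40 points at Rara (-0.211 points as deposited) and -0.205 points at Rxra, whose sign was opposite as deposited (0.366 points). Among all 408 genes placed with at least 5 such sites, the mean level was above that of the tumors in TVI metastases for 261 and below it for 147, with a median difference of 0.375 points.

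**Figure D4:**
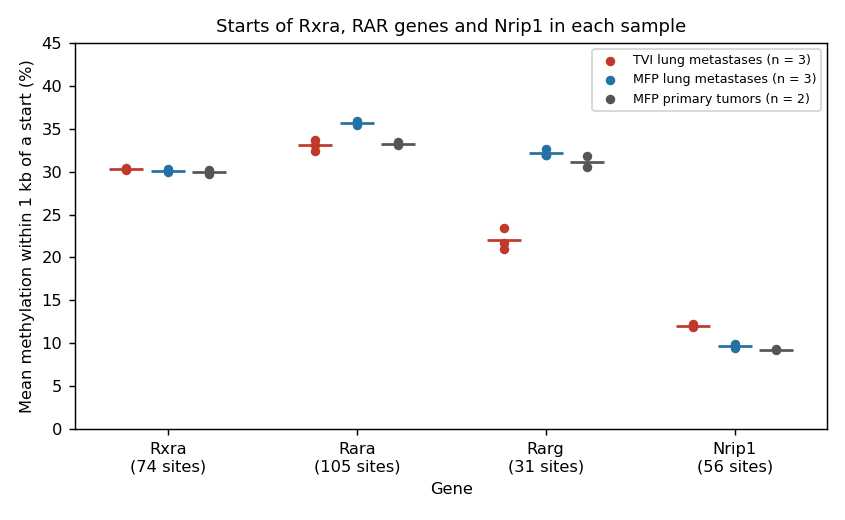
Mean methylation (%) of sites within 1 kb of a start of Rxra, Rara, Rarg and Nrip1 in each sample, with points for samples and bars for group means; TVI metastases stand left, MFP metastases in the middle and primary tumors right of each gene. Rarg in TVI metastases is at 21.0% to 23.4%, below the other samples, and the Rxra groups lie together near 30%.

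Host cells in the samples could not be measured here. Of 39 marker genes of lung epithelium, leukocytes, endothelium, fibroblasts and mammary epithelium, 26 had a promoter sequence, 7 could be placed and 0 had a site within 1 kb of a start. The part of such cells in the differences was not tested.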

How the data were processed

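DNA methylation was measured by bisulfite sequencing, after conversion with the EZ-DNA Methylation Gold kit, per the labels' protocols. The authors deposited 1 table of beta values, the methylated fraction (0 to 1) of calls per site. It held no missing value, and all 8 columns matched a sample. Per the submitters' processing notes, Trimmomatic and Bismark were used and the build was mm10. Versions, any coverage minimum and how sites were selected: not given in the sources used here. Depth is unknown, so no counting interval was computed.

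Fractions of 135914 sites with any variation, and means of 3083 regions (gaps of at most 500 bp, at least 3 sites), went into fits by limma 3.58.1 (R 4.3.3). Each fit had 1 mean per group over all 8 samples, a variance trend, two-sided tests, Benjamini-Hochberg adjustment over the whole table and a threshold of 0.05. The fits were also run on simulated data with independent normal noise at each site, a simpler setting than these data. That run is no support for the calls. The labels do not say that replicates were separate animals, so the calls reflect only sample-to-sample spread, possibly technical.

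Promoters were to be placed 1 by 1 by their CG pattern, but 2 of 54 list promoters with at least 8 CG were placed so. A shift shared by promoters within 2500000 bp was used instead, with at least 10 sites on a CG and at least 95% of the sites inside promoters on a CG. This rule was set after the data were seen. Of the 2 promoters placed alone, 1 lay at the shift shared with its neighbors. Named sites were the highest and lowest TVI difference of each region, the 10 largest and 5 lowest of the locus, and the edge sites, except where a call is singled out. The locus, gene lists and tests were chosen with earlier results of these data known. Alternatives were M-values (offset 0.01), quantile normalization, only the compared groups, no variance trend, a replicate block, an SD filter of 0.02, other joining gaps and leaving out each sample.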

Additional observations from a re-analysis of the deposited data

Results flagged for a closer look

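TVI and MFP metastases were set against each other directly with limma, which tests whether their distances from the primary tumors are equal. At the Rxra locus 150 sites and 13 regions passed the threshold after adjustment over the whole table. Of the sites, 119 were higher in TVI metastases (13.4%, beside 10.4% of all sites). The other 31 were lower (3.49%, beside 6.53% of all sites). All 13 regions were higher in TVI metastases, beside 42.0% of all regions called higher. The widest gap was in region 23, downstream of the gene, where TVI metastases stood 21.0 points above MFP metastases, at 81.2% ± 1.29 (SD, n = 3) against 60.2% ± 0.822 (SD, n = 3). These contrasts led to the choice of the locus, so the values describe it. With 2 or 3 samples a group, no search for single outlying samples was made.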

How the results depend on the processing

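Of 13 alternatives for each called region, 11 of 15 calls of TVI metastases against tumors, 2 of 3 of MFP metastases against tumors and 7 of 13 of TVI against MFP metastases held in all of them. For all metastases against tumors, 8 of 14 calls held in all 12 alternatives. Over all alternatives for the 23 regions, 1094 values kept their side of the threshold, 64 lost a call and 14 gained one. Another 1 changed sign and was called in at least 1 of the fits compared. Changes of sign among values without a call were not counted. The count of regions followed the joining gap. At 250 bp the calls were 28 (TVI against tumors), 5 (MFP against tumors), 25 (TVI against MFP, 22 higher and 3 lower in TVI) and 22 (all metastases against tumors), and at 1000 bp they were 7, 2, 6 and 7. M-values gave 8 regions between TVI and MFP metastases. Quantile normalization gave 9 regions and 43 sites for all metastases, and region 19 turned to -1.15 points there, against 0.357 on the deposited scale. It moved the locus mean differences to 2.44 (TVI against tumors), 0.578 (MFP against tumors), 1.86 (TVI against MFP) and 1.51 points (all metastases). Averaging region means gave 5.82, 2.08, 3.73 and 3.95 points. Leaving out 1 sample at a time gave 3.96 to 4.67, 1.02 to 1.73, 2.84 to 3.07 and 2.49 to 3.20 points in the same order.

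Site calls of MFP metastases against tumors (1) were 0 with M-values, quantile normalization, only the compared groups, the replicate block or any sample left out (92 higher and 26 lower at an unadjusted p under 0.05 in the fit of all samples), 5 without the variance trend and 13 with the SD filter. Leaving out 1 sample gave 118 to 156 sites for TVI metastases against tumors, 123 to 154 for TVI against MFP metastases and 26 to 74 for all metastases. Between samples with the same replicate number, deviations from the group means correlated at -0.0037 to 0.0172. Such values cannot exclude pairing, and the labels do not say whether these samples shared a mouse. The replicate block gave 131 sites (TVI against tumors), 140 (TVI against MFP metastases) and 43 (all metastases), and regions 15, 2, 12 and 12, with region 13 now called lower in TVI than in MFP metastases. Causes were not tested. Unknown depth limits the precision of single sites.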
